A study of Mus musculus with 12 samples.

Results

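The 10 genes described here, H2-K1, H2-D1, B2m, Tap1, Tap2, Tapbp, Psmb8, Psmb9, Psmb10 and Nlrc5, encode the core of the MHC class I presentation machinery. They are defined by name and by their place in the route, and all 10 were found among the 31053 genes counted. The data are single-cell 3' RNA sequencing of mouse cells (10x Chromium, chemistry version 3) from 3 sources, a tracheal allograft, native trachea and spleen, with 4 samples deposited for each. An allograft is tissue transplanted between genetically different animals of 1 species, and the series title concerns obliterative bronchiolitis after transplantation, a scarring closure of small airways. The labels name no strain, sex, age, interval after transplantation, treatment or genetic modification, and do not say how cells were isolated or sorted. Each source has 1 count matrix in which the 4 samples cannot be separated, so each is described as 1 pooled library. Differences are therefore between 2 libraries, carry counting intervals only, and were not tested against the spread between animals.

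MHC class I molecules display short peptides from the proteins a cell makes, so that CD8 T cells can recognise infected, altered or foreign cells. Proteasomes cut proteins in the cytosol, a transporter carries the peptides into the endoplasmic reticulum, and a loading complex fits them into a heavy chain paired with a light chain. Interferon gamma raises transcription of most genes of this route, and donor class I molecules are a main target of the T cell response to an allograft.

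H2-K1 (ENSMUSG00000061232, chromosome 17, 33996017 to 34000347, minus strand of GRCm38) and H2-D1 (ENSMUSG00000073411, chromosome 17, 35262730 to 35267499, plus strand) encode the classical heavy chains. B2m (ENSMUSG00000060802, chromosome 2, 122147686 to 122153083, plus strand) encodes beta-2-microglobulin, their shared light chain. Tap1 (ENSMUSG00000037321, chromosome 17, 34187553 to 34197225) and Tap2 (ENSMUSG00000024339, chromosome 17, 34203527 to 34216321) encode the subunits of the peptide transporter. Tapbp (ENSMUSG00000024308, chromosome 17, 33915899 to 33929292) encodes tapasin, which tethers empty class I molecules to the transporter. Psmb8 (ENSMUSG00000024338, chromosome 17, 34197721 to 34201454), Psmb9 (ENSMUSG00000096727, chromosome 17, 34181987 to 34187764) and Psmb10 (ENSMUSG00000031897, chromosome 8, 105935735 to 105938444) encode the catalytic subunits that turn the proteasome into the immunoproteasome. Nlrc5 (ENSMUSG00000074151, chromosome 8, 94434356 to 94527272) encodes the transactivator of class I genes. Tap1, Tap2, Psmb8 and Psmb9 lie side by side within the MHC on chromosome 17. These positions are those of GENCODE M21 for the whole genes, exons and introns together.

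RefSeq promoter windows of GRCm38.p6, from 250 bases before to 50 bases after a transcription start, were found for 8 of the 10 genes, and none was used for Tap2 or Nlrc5. The 5 windows printed here belong to the genes whose levels are followed most closely below, with capitals for the letters that matched a motif on either strand:
H2-K1, chr17:34000298-34000597, minus strand: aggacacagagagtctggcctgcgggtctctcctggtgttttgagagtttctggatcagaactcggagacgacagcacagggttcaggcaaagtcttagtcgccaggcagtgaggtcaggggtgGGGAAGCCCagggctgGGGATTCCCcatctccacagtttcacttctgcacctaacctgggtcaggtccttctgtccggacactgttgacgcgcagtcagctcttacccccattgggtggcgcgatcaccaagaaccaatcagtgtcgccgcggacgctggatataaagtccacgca
H2-D1, chr17:35262844-35263143, plus strand: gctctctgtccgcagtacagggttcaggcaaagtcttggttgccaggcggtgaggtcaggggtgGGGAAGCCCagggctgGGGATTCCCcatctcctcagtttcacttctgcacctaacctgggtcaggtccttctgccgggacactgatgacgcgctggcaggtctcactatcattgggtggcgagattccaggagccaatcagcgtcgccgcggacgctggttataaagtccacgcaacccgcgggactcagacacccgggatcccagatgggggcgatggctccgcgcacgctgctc
B2m, chr2:122147437-122147736, plus strand: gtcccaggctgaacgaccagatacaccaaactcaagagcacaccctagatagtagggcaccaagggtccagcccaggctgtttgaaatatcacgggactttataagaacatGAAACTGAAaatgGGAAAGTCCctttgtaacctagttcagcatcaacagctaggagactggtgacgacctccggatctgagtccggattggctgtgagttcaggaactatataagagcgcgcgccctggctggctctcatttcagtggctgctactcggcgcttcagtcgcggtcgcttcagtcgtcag
Tap1, chr17:34187306-34187605, plus strand: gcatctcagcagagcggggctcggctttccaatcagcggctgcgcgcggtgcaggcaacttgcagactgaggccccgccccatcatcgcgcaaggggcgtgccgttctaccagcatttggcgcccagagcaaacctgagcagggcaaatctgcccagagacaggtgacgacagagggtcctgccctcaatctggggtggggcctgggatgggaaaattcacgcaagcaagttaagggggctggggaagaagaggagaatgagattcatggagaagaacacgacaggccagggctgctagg
Psmb8, chr17:34197945-34198244, plus strand: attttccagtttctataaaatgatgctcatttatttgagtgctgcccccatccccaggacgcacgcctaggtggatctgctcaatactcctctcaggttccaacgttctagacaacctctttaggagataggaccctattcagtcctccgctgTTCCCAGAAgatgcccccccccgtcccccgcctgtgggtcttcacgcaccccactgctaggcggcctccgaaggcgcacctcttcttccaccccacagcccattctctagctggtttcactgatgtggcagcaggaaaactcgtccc
Letters of the kappa B type, GGGANNNCC or GGANTTTCC, were in the windows of H2-K1, H2-D1 and B2m. Of all 32851 windows, 19.6% held them. The core of the interferon-stimulated response element, GAAANNGAA, was in the B2m window and in 8.56% of all windows, and there it did not overlap the kappa B match. The gamma-activated site TTCNNNGAA was in the Psmb8 window and in 8.30% of all. The windows of Tap1, Psmb9, Tapbp and Psmb10 held no match to these letters. H2-K1 and H2-D1 shared an unbroken run of 47 bases that contains both of their kappa B matches. The Tap1 and Psmb9 windows lie on opposite strands and share 275 bases, and the transcription starts they are drawn around lie 226 bases apart. These matches describe letters and say nothing of binding. Only these exact letters were sought, so a window without a match, such as that of H2-K1 or H2-D1 for the interferon-stimulated element, may hold a variant of it.

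The allograft library held 26503045 UMIs, the counted unique molecules, in 4611 barcodes, the native library 31415458 UMIs in 4626 barcodes and the spleen library 28318436 UMIs in 4856 barcodes. After a cell filter 3864 allograft cells (median 4965 UMIs), 4115 native cells (6526 UMIs) and 4570 spleen cells (4428.5 UMIs) were used, and pairs of libraries shared 4 to 7 barcodes. Cells were put into classes by counting detected markers of each type. Leukocyte markers without stromal ones were found in 94.9% of the allograft cells, 71.7% of the native cells and 98.2% of the spleen cells, although the labels give the cell type of the allograft and native samples as mesenchymal progenitors, and that of the spleen samples as splenocytes. Mesenchyme, the fibroblast and chondrocyte gates together, was 1.40% of the allograft cells (26 fibroblasts and 28 chondrocytes) and 22.5% of the native cells (913 fibroblasts and 11 chondrocytes). The allograft library held 2159 phagocytes, 533 neutrophils, 356 T cells, 142 NK cells, 49 dendritic cells and 32 B cells. The native library held 1720 phagocytes, 569 neutrophils, 169 T cells, 2 NK cells, 84 dendritic cells and 54 B cells, and the spleen library 406 phagocytes, 232 neutrophils, 1072 T cells, 57 NK cells, 27 dendritic cells and 2220 B cells. The doublet caller removed 31 allograft, 41 native and 9 spleen barcodes, under the 3.69% to 3.88% expected for so many barcodes, so doublets are likely to remain.

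Over all cells the 10 genes stood higher in the allograft than in the native library. The level of a gene is given in CPM, its UMIs per 1000000 UMIs of the cells summed. Psmb9 stood at 228 CPM in allograft cells and 53.8 CPM in native cells, a ratio of 4.23 with a 95% counting interval of 4.01 to 4.48. Other ratios are followed by their intervals in the same way, in parentheses. Tap1 stood at 220.4 CPM in allograft cells and 53.5 CPM in native cells (4.12, 3.90 to 4.36). Nlrc5 stood at 42.6 CPM in allograft cells and 11.7 CPM in native cells (3.64, 3.23 to 4.11). Of the 10 genes 9 were at least 2-fold higher and 0 at least 2-fold lower, where 7.06% of the 16465 genes with 10 or more summed UMIs were higher by that much and 19.5% lower. H2-D1 was the exception, at 5120.1 CPM in allograft cells and 3377 CPM in native cells (1.52, 1.50 to 1.53). The median log2 ratio was 1.24 for the 10 genes and 0.01 for all genes. These values mix the classes: leukocytes held 94.2% of the UMIs of the 10 genes in the allograft and 74.5% in the native library, beside 93.3% of all UMIs in the allograft and 61.9% in the native library.

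Within leukocytes as a whole 7 of the 10 genes were at least 2-fold higher in allograft than in native cells (6.89% of all genes) and 0 lower (9.03%). Their median log2 ratio was 1.05, beside 0.12 over all genes. Median-of-ratios scaling, which shifts this comparison by -0.14 (log2), left 4 of the 10. For this and the other alternative settings below, the share of all genes is not given. Phagocytes, the most numerous class of both trachea libraries, also had 7 of 10 genes higher by that much (6.79% of all genes) and 0 lower (9.83%), and a median log2 ratio of 1.13 (all genes 0.09). The same scaling shifts phagocytes by -0.12 (log2), and Tapbp (log2 ratio 1.05) and Psmb10 (1.02) lay less than that above 2-fold. Neutrophils had 8 of 10 (6.89%) and 0 lower (5.61%), and the highest median, 1.58 (all genes 0.10). Their shift was also -0.12, and H2-K1 (log2 ratio 1.03) lay less than that above 2-fold. T cells had 7 of 10 (12.1%) and 0 lower (12.2%), and a median of 1.24 (all genes -0.01). Without the cells that carry thymocyte genes the T cell count is 3 of 10, for which the share of all genes is not given. Mesenchyme had 5 of 10 (17.3%) and 0 lower (13.6%), with a median of 1.14 (all genes 0.06). In phagocytes H2-D1 had a UMI in 99.9% of allograft and 99.8% of native cells and B2m in 99.8% of allograft and 99.7% of native cells, so these genes were found in nearly every cell of both libraries. Tap1 had a UMI in 65.2% of allograft and 27.2% of native phagocytes, and in 25.6% of allograft and 7.57% of native phagocytes with each cell thinned to 1500 UMIs.

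**Figure D1:**
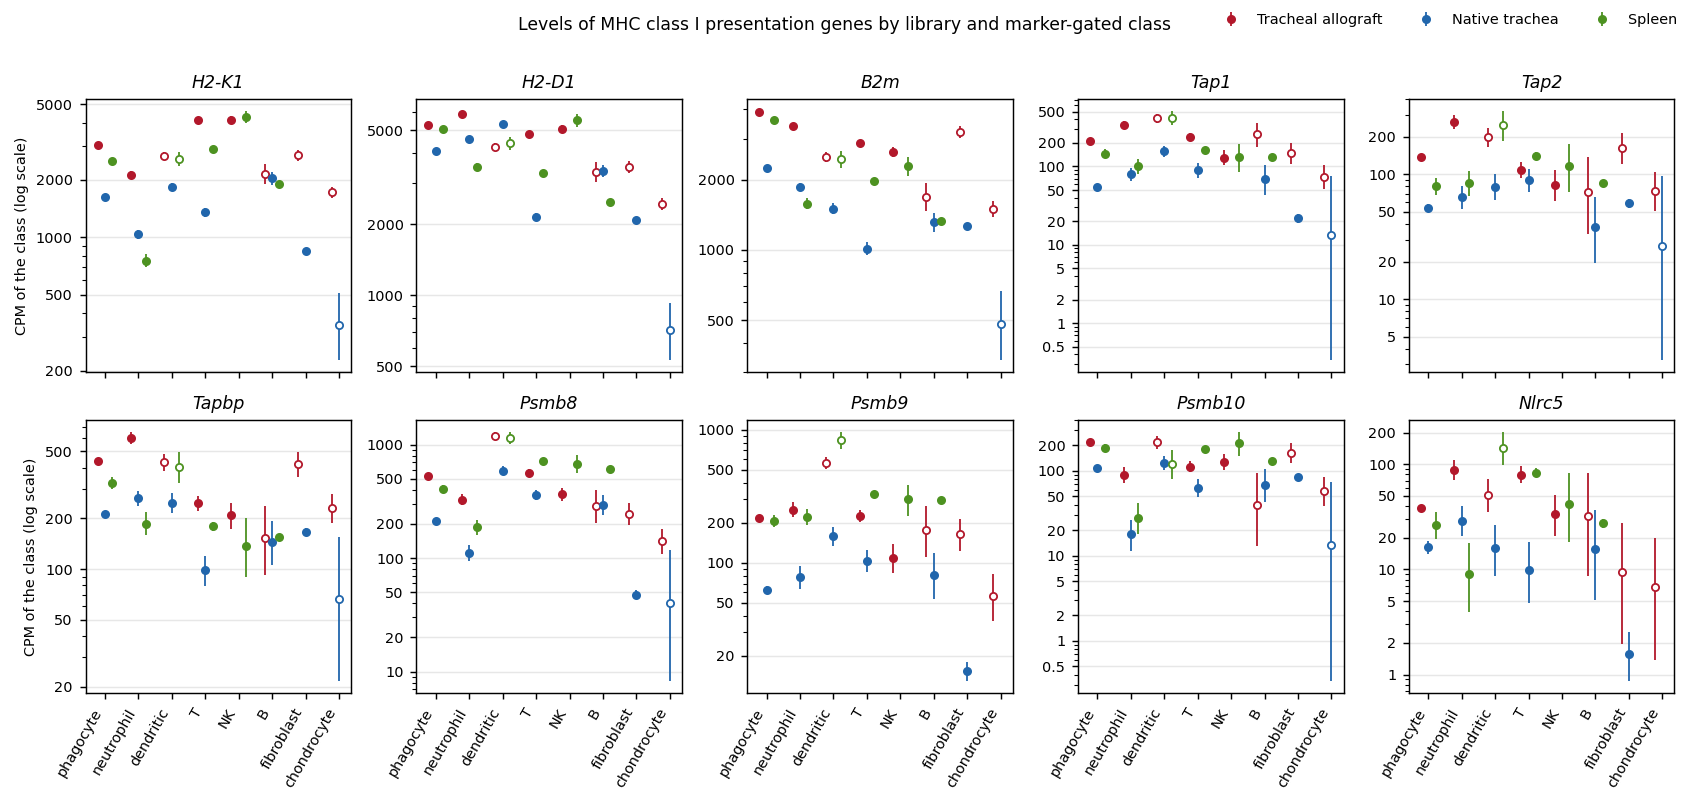
Level of each of the 10 genes (CPM of the class, log axis) by marker-gated class in the allograft, native and spleen libraries, with exact 95% Poisson intervals that cover counting error only. Open symbols mark classes of under 50 cells, sets of under 10 cells are left out, and 0 is not drawn (Psmb9 and Nlrc5 in native chondrocytes). For all 10 genes the allograft phagocytes, neutrophils and T cells lie above the native ones.

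The heavy chains differed from each other in how far the libraries stood apart. H2-K1 in phagocytes stood at 3037 CPM in the allograft, 1630.5 CPM in the native and 2513 CPM in the spleen library, and the allograft to native ratio was 1.86 (1.83 to 1.89). In neutrophils H2-K1 stood at 2123 CPM in the allograft, 1039 CPM in the native and 755 CPM in the spleen library (allograft to native 2.04, 1.91 to 2.19). Spleen neutrophils were the lowest of 16 sets of library and class, those with 50 or more cells and the 54 mesenchymal cells of the allograft, and spleen NK cells at 4286.5 CPM and allograft T cells at 4149 CPM the highest. H2-D1 varied least of the 10 genes over the 16 sets, 2.82-fold between allograft neutrophils at 5874 CPM and native fibroblasts at 2087 CPM. H2-D1 stood at 5285 CPM in allograft phagocytes and 4092 CPM in native phagocytes (1.29, 1.28 to 1.31). In neutrophils H2-D1 stood at 5874 CPM in allograft neutrophils and 4612 CPM in native neutrophils (1.27, 1.23 to 1.32). H2-K1 and H2-D1 are highly similar in sequence, so some of their reads may be given to the wrong copy or dropped. The reference genome carries 1 set of alleles, those of donor and recipient are not in the labels, and their effect on these counts was not tested.

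B2m, the light chain, had ratios nearer to those of H2-K1 than to those of H2-D1 in phagocytes, neutrophils and T cells. In mesenchyme its ratio of 1.76 was nearer to that of H2-D1 (1.39) than to that of H2-K1 (2.54). B2m stood in phagocytes at 3904 CPM in the allograft, 2245 CPM in the native and 3589.9 CPM in the spleen library (allograft to native 1.74, 1.72 to 1.76). Allograft and spleen phagocytes were the 2 highest of the 16 sets for B2m. In neutrophils B2m stood at 3384 CPM in allograft neutrophils and 1865 CPM in native neutrophils (1.81, 1.72 to 1.91). Native T cells had the lowest B2m level of the 16 sets, 1013 CPM, against 2862 CPM in allograft T cells. The rank rests on native cells with thymocyte genes, described below, since the native T cells without them stood at 1521 CPM, above native fibroblasts at 1265 CPM.

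Tap1 showed one of the widest ranges, 15.6-fold between allograft neutrophils at 339.7 CPM and native fibroblasts at 21.8 CPM. In phagocytes Tap1 stood at 209 CPM in the allograft, 55.3 CPM in the native and 146 CPM in the spleen library (allograft to native 3.77, 3.48 to 4.10). Tap2, the other subunit of the transporter, stood there at 137 CPM in the allograft, 53.6 CPM in the native and 80.2 CPM in the spleen library (allograft to native 2.56, 2.35 to 2.79). For both subunits the spleen value thus lay between the other two. Allograft neutrophils had the highest level of Tap1, Tap2 and Tapbp among the 16 sets. Tap2 stood at 265 CPM in allograft neutrophils and 65.6 CPM in native neutrophils (4.02, 3.16 to 5.21), from 249 UMIs in allograft and 88 UMIs in native cells. Tapbp stood at 599 CPM in allograft neutrophils and 263 CPM in native neutrophils, a ratio of 2.28 (1.995 to 2.62). In phagocytes Tapbp stood at 440.3 CPM in allograft phagocytes and 213 CPM in native phagocytes (2.07, 1.98 to 2.17). Neutrophils are the shallowest of the named classes, with medians of 1684 UMIs in the allograft, 1958 UMIs in the native and 2390.5 UMIs in the spleen library.

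The immunoproteasome genes stood higher in the allograft in each of the 4 compared classes, with ratios of 1.22 to 6.64. The lowest, Psmb10 in mesenchyme, had an interval that held 1 (0.951 to 1.53). Psmb8 in phagocytes stood at 523 CPM in the allograft, 213 CPM in the native and 407 CPM in the spleen library (allograft to native 2.46, 2.35 to 2.57). Psmb9 in phagocytes stood at 218 CPM in the allograft, 62.7 CPM in the native and 207 CPM in the spleen library (allograft to native 3.47, 3.22 to 3.76). The allograft and spleen values of Psmb9 lay close together and the native value apart. Psmb10 in phagocytes stood at 216 CPM in allograft phagocytes and 107 CPM in native phagocytes (2.03, 1.90 to 2.16). In neutrophils Psmb10 was low in every library, at 90.5 CPM in the allograft, 17.9 CPM in the native and 28.2 CPM in the spleen library, although its allograft to native ratio was the largest of that class (4.98, 3.18 to 8.32, from 85 allograft and 24 native UMIs). Dendritic cells, of which 2 libraries have under 50, had the highest Psmb9 level of the classes with 10 or more cells in each library, 562 CPM in the allograft, 158 CPM in the native and 835 CPM in the spleen library.

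Nlrc5, the transactivator, had the fewest UMIs of the 10 genes and the widest range over the 16 sets, 56.7-fold. It stood in neutrophils at 88.4 CPM in the allograft, 29.1 CPM in the native and 9.03 CPM in the spleen library, and allograft neutrophils were the highest set (allograft to native 3.02, 2.05 to 4.57). In phagocytes Nlrc5 stood at 38.1 CPM in the allograft, 16.3 CPM in the native and 26.4 CPM in the spleen library (allograft to native 2.33, 1.99 to 2.74). In T cells it stood at 79.8 CPM in the allograft, 9.93 CPM in the native and 83.1 CPM in the spleen library, with 10 UMIs behind the native value (allograft to native 7.69, 4.23 to 17.2). The native library was thus the low one in phagocytes and T cells and the spleen library in neutrophils. The lowest set was native fibroblasts at 1.56 CPM, with 15 UMIs in 913 cells.

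**Figure D2:**
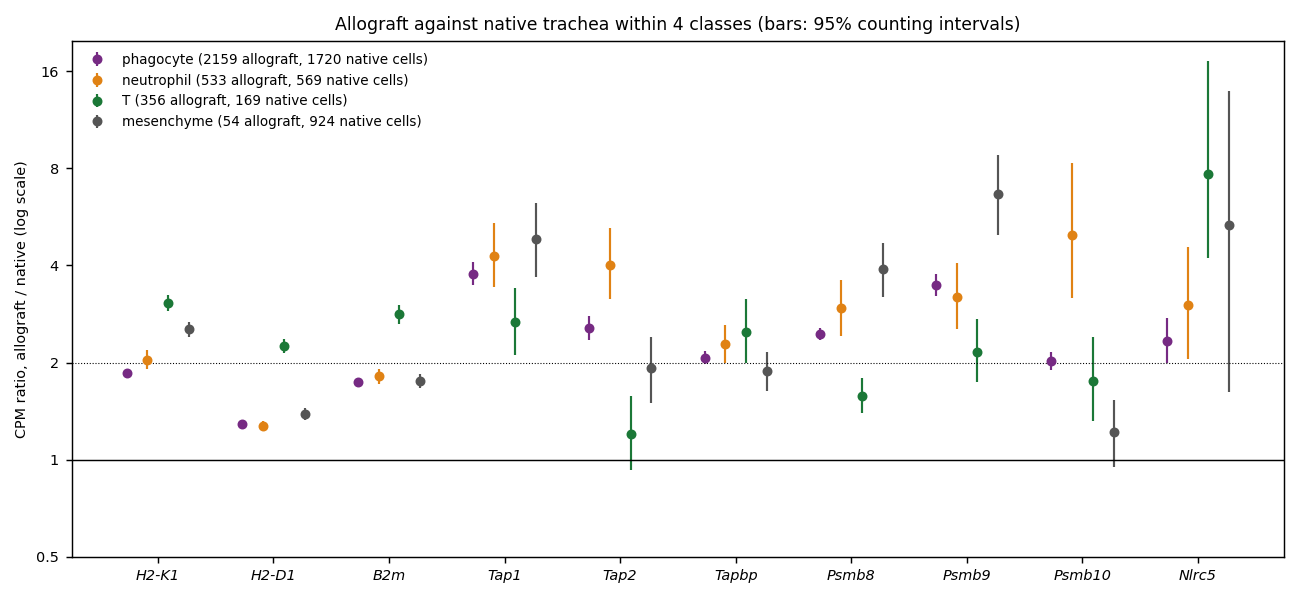
Ratio of CPM in the allograft library to CPM in the native library (log axis) for each of the 10 genes in phagocytes, neutrophils, T cells and mesenchyme, with exact conditional 95% counting intervals; a line marks equal levels and a dotted line a 2-fold difference. All ratios lie above 1, with H2-D1 between 1.27 and 2.25 and Psmb9 between 2.16 and 6.64.

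The T cell ratios moved with a group of cells that was common in the native library. Of the 169 native T cells, 57 carried a UMI of Rag1, Rag2, Dntt or Ptcra, genes of immature T cells of the thymus, against 2 of the 356 allograft and 7 of the 1072 spleen T cells. Native T cells with and without these genes stood far apart in the surface molecules. H2-K1 stood at 277 CPM in cells with them and 2219 CPM in the other 112 (7.99-fold lower, 6.66 to 9.72). H2-D1 stood at 531 CPM in cells with them and 3438 CPM in cells without (6.46-fold lower, 5.65 to 7.43), and B2m at 379.6 CPM in cells with them and 1521 CPM in cells without (4.00-fold lower, 3.39 to 4.75). Tapbp, which serves the same molecules, stood at 22.3 CPM in cells with them and 159 CPM in cells without (6.82-fold lower, 3.70 to 15.4). The immunoproteasome genes did not share this. Psmb8 stood at 415 CPM in cells with them and 313 CPM in cells without (1.33, 1.07 to 1.64), Psmb9 at 107 CPM in cells with them and 102 CPM in cells without (1.05, 0.702 to 1.57) and Psmb10 at 64.8 CPM in cells with them and 62.5 CPM in cells without (1.04, 0.610 to 1.74). The transporter subunits differed from each other, with Tap1 2.17-fold lower (1.36 to 3.67) and Tap2 1.74-fold higher (1.13 to 2.72) in the cells with thymocyte genes. Nlrc5 had 1 UMI in cells with them and 9 in cells without. In all, 6 of the 10 genes were at least 2-fold lower, where 12.6% of all genes were, and 0 higher, where 18.6% were. Median depth was 2782 UMIs in cells with these genes and 4030.5 UMIs in cells without, and its part in the difference was not tested.

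Without the cells carrying those genes, 354 allograft and 112 native T cells remained, and 3 of the 10 genes were at least 2-fold higher in the allograft. The share of all genes at 2-fold is not given for these cells. Nlrc5 stood at 79.6 CPM in allograft T cells and 16.1 CPM in native T cells (4.71, 2.52 to 11.1). Psmb9 stood at 227 CPM in allograft T cells and 102 CPM in native T cells (2.21, 1.68 to 3.00), and Tap1 at 240.2 CPM in allograft T cells and 118 CPM in native T cells (2.02, 1.56 to 2.69). H2-K1, whose ratio was 3.06 over all T cells, then stood at 4154 CPM in allograft T cells and 2219 CPM in native T cells (1.87, 1.76 to 1.99), and B2m at 2858 CPM in allograft T cells and 1521 CPM in native T cells (1.88, 1.75 to 2.03). The remaining 5 ratios ran from 1.41 for H2-D1 to 1.80 for Psmb8.

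By summed CPM, leukocytes had higher levels of the 10 genes than mesenchyme within each trachea library, except for Tap2 in native trachea. Under other settings or in a smaller set of cells, given below, Psmb10, Tapbp and the allograft Tap2 were not higher in leukocytes. The largest ratios were those of Nlrc5, Psmb8, Psmb9 and Tap1. In the native library Nlrc5 stood at 17.3 CPM in native leukocytes and 1.55 CPM in native mesenchyme (10.8, 6.67 to 20.2) and Psmb8 at 255 CPM in native leukocytes and 47.5 CPM in native mesenchyme (5.36, 4.88 to 5.92). Psmb9 stood at 73.0 CPM in native leukocytes and 15.2 CPM in native mesenchyme (4.77, 4.04 to 5.71) and Tap1 at 70.2 CPM in native leukocytes and 21.7 CPM in native mesenchyme (3.22, 2.79 to 3.75). These 4 were the genes at least 2-fold higher in native leukocytes, as 23.8% of all genes were, and 0 of the 10 were lower, as 26.9% were. H2-D1 lay just under 2-fold, at 4147 CPM in native leukocytes and 2076 CPM in native mesenchyme (1.997, 1.97 to 2.03). Tap2 stood at 58.7 CPM in native leukocytes and 58.3 CPM in native mesenchyme (1.01, 0.909 to 1.12), and Psmb10 at 96.3 CPM in native leukocytes and 84.2 CPM in native mesenchyme (1.14, 1.05 to 1.24). With the mean of per-cell CPM in place of sums, the native Psmb10 ratio was 0.947.

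The same 4 genes were at least 2-fold higher in leukocytes than in mesenchyme of the allograft, beside 21.6% of all genes, and 0 lower, beside 24.4%. The allograft mesenchyme compared here is 54 cells, of which 28 are chondrocytes. Psmb8 stood at 537 CPM in allograft leukocytes and 185 CPM in allograft mesenchyme (2.89, 2.46 to 3.45) and Psmb9 at 229 CPM in allograft leukocytes and 101 CPM in allograft mesenchyme (2.25, 1.81 to 2.88). Tap1 stood at 222 CPM in allograft leukocytes and 105 CPM in allograft mesenchyme (2.10, 1.70 to 2.67), and Nlrc5, with 6 UMIs in mesenchyme, at 43.4 CPM in allograft leukocytes and 7.87 CPM in allograft mesenchyme (5.09, 2.53 to 15.1). The count was 2 of 10 with cells thinned to 1500 UMIs and 2 of 10 with 1 marker more per gate. H2-K1 stood at 3067 CPM in allograft leukocytes and 2128 CPM in allograft mesenchyme (1.44, 1.37 to 1.51). Tapbp stood at 422 CPM in allograft leukocytes and 309 CPM in allograft mesenchyme (ratio 1.36), but its ratio was 0.985 with cells thinned to 1500 UMIs. In the 20 allograft mesenchymal cells without a UMI of the leukocyte gate's markers, Tap2, Tapbp and Psmb10 stood higher than in leukocytes. Tap2 stood at 166 CPM in those 20 cells and 140 CPM in leukocytes, Tapbp at 441 and 422 CPM, and Psmb10 at 223 and 197 CPM. The other members stood lower in those cells than in leukocytes. Psmb9 stood at 227 CPM in those 20 cells beside 229 CPM in leukocytes, Tap1 at 156 CPM beside 222 CPM and Psmb8 at 279 CPM beside 537 CPM. No ratio to leukocytes was computed for these 20 cells. Whether leukocytes and mesenchyme lie closer in the allograft than in native trachea was not tested, since each library is 1 pool.

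**Figure D3:**
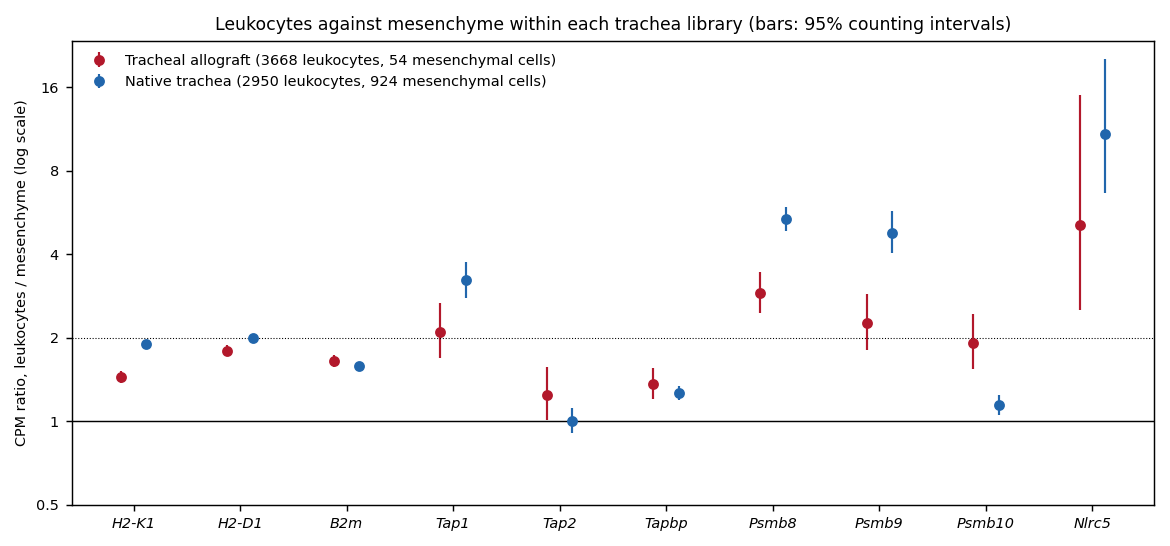
Ratio of CPM in leukocytes to CPM in mesenchyme (log axis) for each of the 10 genes within the allograft library and within the native library, with exact conditional 95% counting intervals. Lines mark equal levels and a 2-fold difference. Psmb8, Psmb9, Tap1 and Nlrc5 lie above 2 in both libraries, and Tap2 lies near 1 in the native library. Allograft mesenchyme is 54 cells, of which 28 are chondrocytes.

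Allograft mesenchyme had the largest allograft to native ratios of the 4 classes for Psmb9, Tap1 and Psmb8. Psmb9 stood at 101 CPM in allograft mesenchyme and 15.2 CPM in native mesenchyme (6.64, 4.96 to 8.78), Tap1 at 105 CPM in allograft mesenchyme and 21.7 CPM in native mesenchyme (4.84, 3.68 to 6.27) and Psmb8 at 185 CPM in allograft mesenchyme and 47.5 CPM in native mesenchyme (3.90, 3.20 to 4.71). H2-K1 stood at 2128 CPM in allograft mesenchyme and 839.7 CPM in native mesenchyme (2.54, 2.40 to 2.67), and Nlrc5 rested on 6 UMIs in allograft and 15 UMIs in native mesenchyme (5.34, 1.62 to 13.9). Psmb10, at 102 CPM in allograft mesenchyme and 84.2 CPM in native mesenchyme (1.22, 0.951 to 1.53), was the one gene of the 10 whose interval held 1. The allograft set holds 54 cells, of which 28 are chondrocytes, and the native set 924, of which 11 are. In fibroblasts alone H2-K1 stood at 2701 CPM in the 26 allograft cells and 843 CPM in the 913 native cells. Psmb9 stood at 164 CPM in allograft and 15.4 CPM in native fibroblasts, and B2m at 3208 CPM in allograft and 1265 CPM in native fibroblasts. The 28 allograft chondrocytes had 1719.6 CPM of H2-K1 and 56.2 CPM of Psmb9, and the 11 native chondrocytes 348 CPM of H2-K1 and 0 UMIs of Psmb9.

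Leukocyte RNA was also present in mesenchymal cells. The summed level of 8 leukocyte genes (Tyrobp, Fcer1g, Lyz2, C1qa, C1qb, C1qc, S100a8 and S100a9) in mesenchyme was 2.06% of that in leukocytes in the allograft and 0.674% in the native library. Single genes lay between 0.867% and 3.19% in the allograft and between 0.433% and 0.938% in the native library, and 0 of the 8 were at 0. Of the 8, 6 were at least 2-fold higher in allograft than in native mesenchyme, as 17.3% of all genes were. In the 20 allograft and 636 native mesenchymal cells without a UMI of any of the 8 markers of the leukocyte gate, all 10 ratios were 2 or more. The share of all genes is not given for these cells, and the 20 are under the 50 asked of other ratios. H2-D1 had the lowest, at 4131 CPM in allograft cells and 2056 CPM in native cells (2.01, 1.87 to 2.15), and Psmb9 the highest, at 227 CPM in allograft cells and 15.3 CPM in native cells (15.0, 10.3 to 21.2). H2-K1 stood at 2842 CPM in allograft cells and 823 CPM in native cells (3.46, 3.17 to 3.76), while Nlrc5 had 2 UMIs in allograft and 7 UMIs in native cells (10.1, 0.880 to 45.6).

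Each immunoproteasome gene has a constitutive counterpart whose place its product takes, Psmb5 for Psmb8, Psmb6 for Psmb9 and Psmb7 for Psmb10. The share of a pair's UMIs that belong to the immunoproteasome gene is compared between sets of cells and is not the ratio of the proteins, since capture differs between transcripts. Psmb9 made up 37.6% of its pair in allograft mesenchyme (exact binomial 95% interval 30.9 to 44.6) and 6.98% (5.93 to 8.15) in native mesenchyme. In leukocytes the share was 48.1% (47.2 to 49.0) in the allograft and 27.5% (26.3 to 28.8) in the native library. Psmb8 made up 62.9% (56.3 to 69.3) of its pair in allograft mesenchyme and 23.7% (21.8 to 25.7) in native mesenchyme. In leukocytes the Psmb8 share was 75.9% (75.2 to 76.5) in the allograft and 67.6% (66.5 to 68.7) in the native library. Psmb10 lay closer in mesenchyme, with 54.2% (45.7 to 62.5) in the allograft and 48.3% (45.9 to 50.7) in the native library.

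Neutrophils had a mixed pattern of these shares. Psmb9 made up 75.6% (70.5 to 80.3) of its pair in allograft, 45.7% (39.1 to 52.3) in native and 74.3% (68.6 to 79.5) in spleen neutrophils, above phagocytes of the same library in each. Psmb10 made up 48.6% (41.0 to 56.2) in allograft, 17.1% (11.3 to 24.4) in native and 32.9% (22.5 to 44.6) in spleen neutrophils, below phagocytes in each. Of the 3 constitutive genes 0 were 2-fold apart between allograft and native cells in any of the 4 classes, and their ratios ran from 0.579 for Psmb5 in T cells to 1.54 for Psmb5 in phagocytes.

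**Figure D4:**
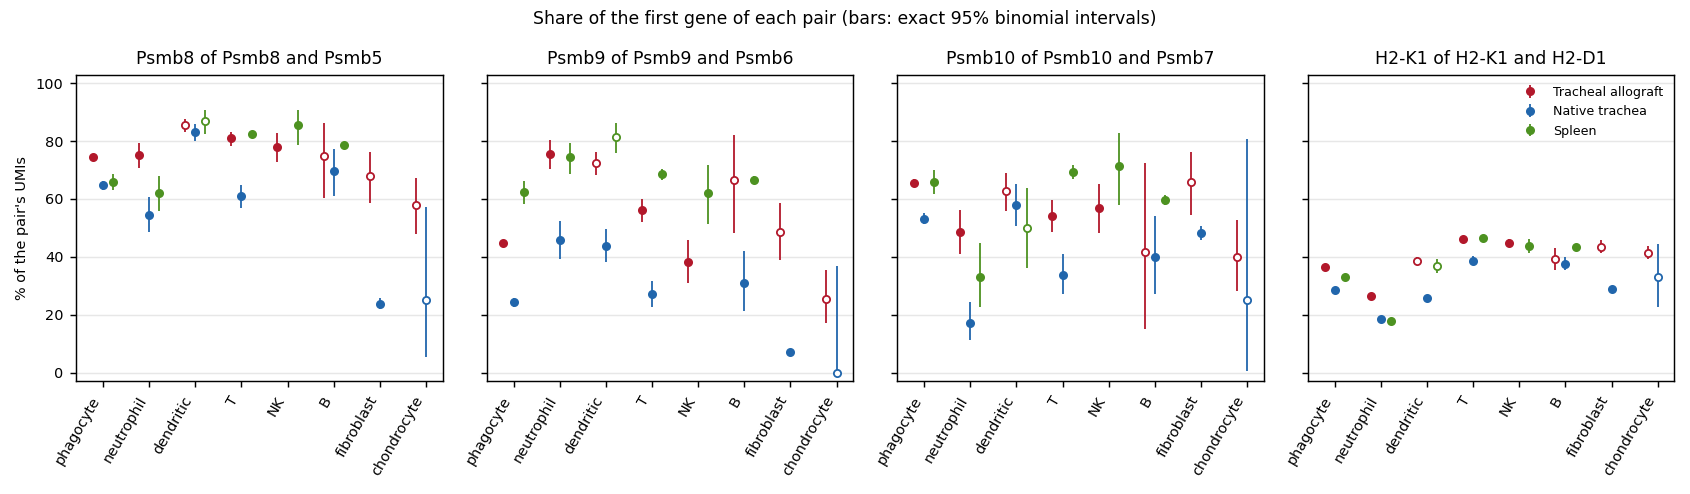
Percent of a gene pair's UMIs that belong to its first member, by marker-gated class in the allograft, native and spleen libraries, with exact 95% binomial intervals; open symbols mark classes of under 50 cells. Native fibroblasts hold the lowest Psmb8 and Psmb9 shares of the classes drawn with 50 or more cells, and neutrophils the lowest H2-K1 share of the leukocyte classes in each library.

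The share of H2-K1 among the UMIs of H2-K1 and H2-D1 differed by class and by library. Neutrophils had 26.5% (25.6 to 27.6) in the allograft, 18.4% (17.5 to 19.3) in the native and 17.7% (16.5 to 19.0) in the spleen library. T cells had 46.2% (45.3 to 47.0) in the allograft, 38.7% (37.1 to 40.3) in the native and 46.7% (46.1 to 47.2) in the spleen library. Phagocytes had 36.5% (36.2 to 36.7) in the allograft, 28.5% (28.2 to 28.8) in the native and 33.1% (32.3 to 33.9) in the spleen library. Fibroblasts had 43.6% (41.3 to 45.8) in the allograft and 28.8% (28.3 to 29.3) in the native library. The share was lowest in the native library in phagocytes and T cells, but not in neutrophils, whose spleen interval overlaps the native one. The part of the alleles in these shares was not tested.

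Other genes of the route were compared between allograft and native cells in the same 4 classes, where 6.79% of all genes in phagocytes, 6.89% in neutrophils, 12.1% in T cells and 17.3% in mesenchyme were at least 2-fold higher in the allograft. Of the 3 PA28 genes, whose products form caps that open the proteasome, Psme2 was at least 2-fold higher in phagocytes, at 275 CPM in allograft phagocytes and 119 CPM in native phagocytes (2.31, 2.18 to 2.45), and in neutrophils, at 227 CPM in allograft neutrophils and 99.9 CPM in native neutrophils (2.27, 1.82 to 2.84), and none was in T cells or mesenchyme. Of 5 genes of peptide loading and trimming, Tapbpl, a relative of tapasin, was the one at least 2-fold higher in phagocytes, at 38.3 CPM in allograft phagocytes and 18.0 CPM in native phagocytes (2.12, 1.82 to 2.48), and in neutrophils, from 24 UMIs in allograft and 3 UMIs in native cells (9.99, 3.47 to 59.2). The chaperone genes Calr, Canx and Pdia3 had ratios of 1.12 to 1.37 in phagocytes and neutrophils. In mesenchyme 0 of the 5 was 2-fold apart, with Calr at 953 CPM in allograft mesenchyme and 1509 CPM in native mesenchyme and Pdia3 at 492 CPM in allograft mesenchyme and 758 CPM in native mesenchyme.

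Of 6 nonclassical class I genes, 2 were at least 2-fold higher in allograft than in native phagocytes (6.79% of all genes), 4 in neutrophils (6.89%), 4 in T cells (12.1%) and 3 in mesenchyme (17.3%), and 0 were lower in any of these. H2-T23, which encodes the Qa-1 molecule recognised by NK receptors, stood at 342 CPM in allograft phagocytes and 163 CPM in native phagocytes (2.10, 1.99 to 2.21). In mesenchyme H2-T23 stood at 256 CPM in allograft mesenchyme and 124 CPM in native mesenchyme (2.07, 1.76 to 2.40). H2-Q6 and H2-Q7 are near-identical copies between which reads can be misassigned. In mesenchyme H2-Q6 stood at 129 CPM in allograft mesenchyme and 23.8 CPM in native mesenchyme, and H2-Q7 at 188 CPM in allograft mesenchyme and 58.4 CPM in native mesenchyme.

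Among the factors that act at class I promoters or pass on interferon signals, Irf1, a factor induced by interferon, did not keep one direction. It stood at 323 CPM in allograft neutrophils and 51.5 CPM in native neutrophils (6.23, 4.81 to 8.27) and at 113 CPM in allograft phagocytes and 44.8 CPM in native phagocytes (2.52, 2.29 to 2.77), but at 69.5 CPM in allograft mesenchyme and 152 CPM in native mesenchyme (2.16-fold lower, 1.66 to 2.92). Rfx5, Rfxap and Rfxank, subunits of a complex that Nlrc5 joins at class I promoters, had ratios of 1.08 to 1.33 in phagocytes. Rfx5 was past 2-fold in T cells on 5 UMIs in allograft and 7 UMIs in native cells (2.05-fold lower, 0.575 to 8.41). Rfxank was past 2-fold in mesenchyme on 7 UMIs in allograft and 39 UMIs in native cells (2.42, 0.862 to 5.17), and both intervals held 1. Ifng itself had 414 UMIs in allograft and 19 UMIs in native cells, most of them in T and NK cells, and 0 in mesenchyme of either library. In T cells Ifng stood at 144 CPM in allograft T cells and 11.9 CPM in native T cells (11.6, 6.77 to 23.7) and its receptor gene Ifngr1 at 1576 CPM in allograft T cells and 623 CPM in native T cells (2.53, 2.32 to 2.77). The other receptor gene, Ifngr2, stood at 12.5 CPM in allograft T cells and 127 CPM in native T cells (9.91-fold lower, 6.23 to 17.4). Against spleen T cells the log2 ratio of Ifngr2 was -0.06 in allograft and 3.24 in native T cells. The native T cells here include those with thymocyte genes, and their part in these ratios was not tested.

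Allograft and native cells were each compared with the same spleen cells. Allograft phagocytes had 0 of 10 genes at least 2-fold higher than spleen phagocytes (18.8% of all genes) and 0 lower (24.2%), with ratios from 1.04 for H2-D1 to 1.70 for Tap2. The median log2 ratio was 0.32 for the 10 genes and -0.29 for all genes, and the H2-D1 ratio was between 0.927 and 0.995 under 4 of the alternative settings. Native phagocytes had 2 lower (28.6% of all genes) and 0 higher (19.6%), a count below the share of all genes, with a median log2 ratio of -0.69 for the 10 genes and -0.39 for all genes. The 2 were Psmb9, at 62.7 CPM in native phagocytes against 207 CPM in spleen phagocytes (3.30-fold lower, 2.91 to 3.73), and Tap1, at 55.3 CPM in native phagocytes against 146 CPM in spleen phagocytes (2.64-fold lower, 2.28 to 3.05). The count was 4 with cells thinned to 1500 UMIs and 1 with median-of-ratios scaling, under which H2-D1 stood higher in native than in spleen phagocytes (1.07, against 0.804 in CPM).

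Allograft T cells had 0 of 10 apart from spleen T cells (15.9% higher and 14.5% lower over all genes), with a median log2 ratio of 0.20 (all genes 0.04). Native T cells had 4 lower (15.6%) and 0 higher (16.8%), with a median of -0.98 (all genes 0.10), and 8 lower with mitochondrial and ribosomal genes left out of the totals. Such a change of totals moves all genes alike, and the share of all genes under it is not given. The largest difference was that of Nlrc5, at 9.93 CPM in native T cells against 83.1 CPM in spleen T cells (7.98-fold lower, 4.51 to 17.6). Without cells carrying thymocyte genes, 112 native and 1065 spleen T cells remained and 5 genes were lower, Nlrc5, Psmb9, Psmb10, Psmb8 and Tap2. The share of all genes is not given for these cells. H2-K1, 2.14-fold lower over all native T cells, then stood at 2219 CPM in native T cells against 2904 CPM in spleen T cells (1.31-fold lower), and H2-D1 at 3438 CPM in native T cells against 3314 CPM in spleen T cells (1.04, 0.989 to 1.09). Allograft NK cells had 1 of 10 lower than spleen NK cells (17.1%), or 2 with cells thinned, and 0 higher (13.6%), or 1 with 1 marker fewer per gate. The 1 was Psmb9, at 109 CPM in allograft NK cells against 299.8 CPM in spleen NK cells (2.75-fold lower, 1.90 to 3.97). Native B cells had 3 of 10 lower than spleen B cells (21% of all genes), or 1 with median-of-ratios scaling, and 0 higher (12.2%).

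Neutrophils were the class in which the allograft stood apart from spleen too. Of the 10 genes 7 were at least 2-fold higher in allograft than in spleen neutrophils (20.2% of all genes) and 0 lower (25.1%). H2-K1 stood at 2123 CPM in allograft neutrophils and 755 CPM in spleen neutrophils (2.81, 2.58 to 3.07) and Tapbp at 599 CPM in allograft neutrophils and 186 CPM in spleen neutrophils (3.21, 2.70 to 3.85). Nlrc5, from 83 UMIs in allograft and 8 UMIs in spleen neutrophils, had a ratio of 9.27 (4.75 to 23.4). Psmb9 was closest, at 251 CPM in allograft neutrophils and 222 CPM in spleen neutrophils (1.13, 0.932 to 1.37). In native neutrophils 1 of the 10 was at least 2-fold higher than in spleen, Nlrc5 (18% of all genes), and 1 lower, Psmb9 (26.1%), at 78.3 CPM in native neutrophils against 222 CPM in spleen neutrophils (2.83-fold lower, 2.23 to 3.63). H2-K1, H2-D1 and Tapbp were higher in native than in spleen neutrophils, with ratios of 1.38 for H2-K1, 1.32 for H2-D1 and 1.41 for Tapbp, which was 0.986 with the mean of per-cell CPM. That setting gave 2 of the 10 lower, and thinning gave 0 higher.

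Within the allograft phagocytes, cells with a UMI of Cxcl9, a chemokine gene induced by interferon gamma, had higher levels of all 10 genes than cells without. Psmb8 stood at 753 CPM in the 535 cells with Cxcl9 and 425 CPM in the 1624 without (1.77, 1.70 to 1.85). Tap1 stood at 289 CPM in cells with Cxcl9 and 175 CPM in cells without (1.65, 1.54 to 1.76), and H2-D1, the closest, at 5734 CPM in cells with Cxcl9 and 5093 CPM in cells without (1.13, 1.11 to 1.14). The median of the 10 ratios was 1.58, beside 0.977 over all genes, and 0 were at least 2-fold higher or lower, as 2.82% and 4.5% of all genes were. Cells with Cxcl9 were deeper, with a median of 9152 UMIs in cells with it against 6454 UMIs in cells without, and the part of depth in this was not tested. In the 229 cells with Arg1 or Nos2, the genes of enzymes that compete for arginine, all 10 were higher than in the 1930 cells without (median ratio 1.32, all genes 0.966), again at greater depth, 9714 UMIs in cells with them against 6879 UMIs in cells without. In the 901 cells with Gpnmb or Spp1, genes of lipid-laden and scar-associated macrophages, the median ratio to the 1258 cells without was 0.811, beside 1.002 over all genes, and 1 of 10 was above 1, although those cells were also the deeper ones, at 8629 UMIs in cells with these genes against 6275.5 UMIs in cells without.

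Cells with a UMI of Lyve1 or Cd163, genes of resident tissue macrophages, were 84 of the 2159 allograft and 1030 of the 1720 native phagocytes. Among native phagocytes Tap1 stood at 43.3 CPM in cells with them and 71.0 CPM in cells without (0.610, 0.522 to 0.711), and Psmb8 at 182 CPM in cells with them and 253 CPM in cells without (0.721, 0.667 to 0.779). Psmb9 stood at 62.9 CPM in cells with them and 62.4 CPM in cells without (1.01, 0.872 to 1.16). Leaving such cells out of both libraries gave allograft to native ratios of 2.94 for Tap1, 2.08 for Psmb8 and 3.50 for Psmb9. The same 7 genes were then at 2-fold or more, and the share of all genes is not given for the remaining cells. T cells with Foxp3, the gene that defines regulatory T cells, had higher levels of 9 of the 10 genes than the other T cells in the allograft (58 cells with and 298 without). Of those 9, Psmb10 (1.35, 0.932 to 1.91) and Nlrc5 (1.07, 0.655 to 1.64) had intervals that held 1. Tap2 stood at 109 CPM in cells with Foxp3 and 109 CPM in cells without. The median ratio was 1.31, beside 1.06 over all genes. Psmb9, the 1 of 10 at least 2-fold higher (9.32% of all genes, and 8.54% lower), stood at 378 CPM in cells with Foxp3 and 187 CPM in cells without (2.02, 1.60 to 2.53). In the spleen (81 cells with and 991 without) the ratios of the 10 ran from 1.04 for Psmb10 to 1.52 for Tapbp, with a median of 1.32 beside 1.21 over all genes. Cells with Foxp3 were the shallower ones, at 3649.5 UMIs against 3891 UMIs in cells without in the allograft, and at 3058 UMIs against 4340.0 UMIs in cells without in the spleen.

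The spread between cells was wide in some sets. The 10 genes together made up a median of 137 UMIs per 10000 in allograft phagocytes and 82.0 UMIs per 10000 in native phagocytes, and the 25th percentile of the allograft cells, 107, was above the 75th percentile of the native cells, 100.5. In T cells the medians were 132 in the allograft and 53.0 in the native library, where the 10th and 90th percentiles lay at 10.6 and 123. In mesenchyme the medians were 81.9 in the allograft and 39.8 in the native library. The 28 allograft chondrocytes ranged from 5.18 to 162 (10th to 90th percentile) around a median of 60.6.

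**Figure D5:**
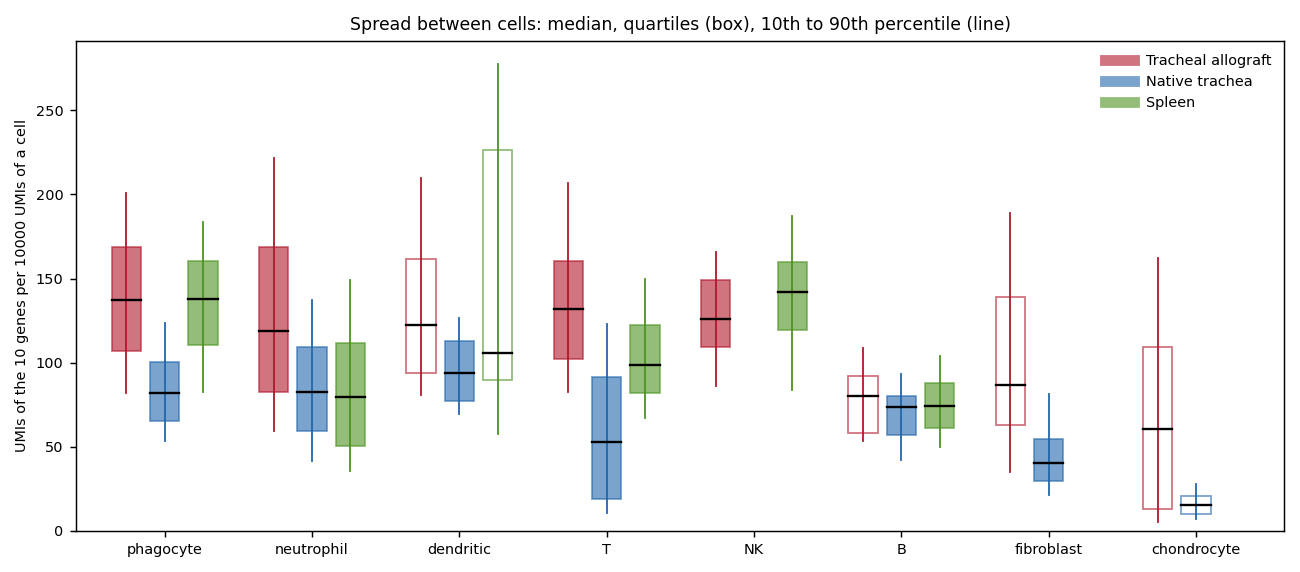
UMIs of the 10 genes per 10000 UMIs of a cell, by marker-gated class in the allograft, native and spleen libraries; lines are medians over cells, boxes quartiles, thin lines the 10th to 90th percentile. The boxes of allograft and native phagocytes do not overlap, nor do those of T cells; cells are not replicates.

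The genes whose levels followed the 10 most closely were sought among 6092 genes with a mean of 20 CPM or more over the 16 sets of library and class. Likeness was Pearson's r between a gene's log2 level and the mean of the standardised log2 levels of the 10. Of the 10 closest, 9 are named here. Zbp1, a sensor of nucleic acids, was closest (r = 0.858), and the others named were Psme2 (0.815), Zc3h7a (0.773), the guanylate-binding gene Gbp5 (0.767), Epsti1 (0.751), Gtf2a1, a subunit of a general transcription factor (0.740), Mroh1 (0.728), Rnf114 (0.721) and Pfkl, a phosphofructokinase of glycolysis (0.718). Of the 10 genes Tap1 itself was nearest to that mean (0.922) and Tapbp farthest (0.580). Each of the 10 is part of the mean, so their r is not comparable with that of genes outside the 10. The 16 sets share 3 libraries and differ in depth and cell number, so these values describe the sets only. The mean was highest in allograft neutrophils (1.13) and allograft phagocytes (0.993) and lowest in native fibroblasts (-1.72).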

How the data were processed

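The deposited values are raw UMI counts. Per the file headers they came from Cell Ranger 3.1.0, and per the submitters' processing notes the build was mm10. There is 1 matrix per source for 12 samples in 3 groups of 4, and the annotation is not given in the sources used here. Of 31053 feature identifiers 30934 were in GENCODE M21. Every column of per-sample values was used.

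Cells had to show 500 genes and at most 20% mitochondrial UMIs. Predicted doublets were dropped (scrublet in scanpy 1.11.5, with an assumed 0.8% for each 1000 barcodes). A cell joined a class with at least 3 or 4 of its 8 markers detected. Leukocyte classes needed the leukocyte gate and no stromal one, stromal classes no leukocyte gate, and cells in several gates stayed out of the single classes, except that the chondrocyte gate overrode the fibroblast one. Counts were summed per class and library and scaled to CPM with exact Poisson intervals. Ratios had 0.5 UMI added to each sum, an exact conditional 95% interval, and 50 or more cells on each side (values without a ratio were given for smaller sets, except 1 added alternative). Called means 2-fold, and all genes with 10 or more summed UMIs gave the background. No difference was tested and no p-value is given, since 1 pool per source leaves no replicates. Intervals cover counting error only, and the spread between animals is unknown.

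All 10 genes and the genes of the lists named were taken by rule, as were the 10 genes of highest Pearson r, of which 1 gene is not reported here. Members, lists, classes and cell states were chosen with earlier results of these data known. The interval computation was tested on simulated data. Promoter windows came from RefSeq. Alternatives were cell filters, doublets kept, totals without mitochondrial and ribosomal genes, median-of-ratios scaling, per-cell means, thinning to 1500 UMIs, gates of 1 marker more or fewer, and a minimum of 50 summed UMIs. The work used matplotlib 3.10.9, scipy 1.17.1, pandas 2.3.3 and numpy 2.4.6 under Python 3.11.15.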

Additional observations from a re-analysis of the deposited data

How the results depend on the processing

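No paired analysis was possible because each source is 1 pooled matrix without replicates, and for the same reason no replicate could be left out. Of the ratios of the 10 genes recomputed, 1136 stayed within the interval of the main value and 284 moved outside it. No ratio of 2-fold or more changed direction. Among smaller ones with an interval clear of 1, 11 did. H2-D1 in allograft against spleen phagocytes (main 1.04) was 0.995 without mitochondrial and ribosomal genes in the totals, 0.935 with per-cell means, 0.927 thinned and 0.980 with 1 marker fewer. H2-D1 in native against spleen phagocytes (0.804) was 1.07 with median-of-ratios scaling, and in native against spleen T cells (0.648) 1.04 without thymocyte-gene cells. In native against spleen neutrophils B2m (1.18) was 0.932 with per-cell means and 0.989 thinned, and Tapbp (1.41) 0.986 with per-cell means. In leukocytes against mesenchyme Psmb10 (1.14, native) was 0.947 with per-cell means and Tapbp (1.36, allograft) 0.985 thinned. Counts of the 10 genes 2-fold or more apart changed by over 1.5 times as follows. With median-of-ratios scaling, allograft against native leukocytes had 4 higher in place of 7, allograft against spleen phagocytes 1 higher in place of 0, native against spleen phagocytes 1 lower in place of 2, and native against spleen B cells 1 lower in place of 3. That scaling moves all genes by -0.14, 0.30, 0.42 and 0.28 on the log2 scale in those 4 comparisons, by -0.12 in allograft against native phagocytes and neutrophils, by -0.17 in allograft leukocytes against mesenchyme, by -0.11 in allograft against spleen neutrophils and by -0.10 in native against spleen T cells. With cells thinned to 1500 UMIs, native against spleen phagocytes had 4 lower in place of 2, native against spleen neutrophils 0 higher in place of 1, allograft leukocytes against mesenchyme 2 higher in place of 4, and allograft against spleen NK cells 2 lower in place of 1. Without mitochondrial and ribosomal genes in the totals, native against spleen T cells had 8 lower in place of 4. With the mean of per-cell CPM, native against spleen neutrophils had 2 lower in place of 1. With 1 marker more per gate, allograft leukocytes against mesenchyme had 2 higher in place of 4, and with 1 marker fewer allograft against spleen NK cells had 1 higher in place of 0. The share of all genes is not given under these settings, and the cause of these changes was not tested.

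Further alternatives were chosen after seeing the data. Without cells carrying thymocyte genes, allograft against native T cells had 3 higher in place of 7. In mesenchyme without leukocyte markers, allograft against native had 10 higher in place of 5. The share of all genes is not given for either of these sets. Leaving out phagocytes with Lyve1 or Cd163, or native chondrocytes, changed no count by over 1.5 times. The native chondrocytes are 11 of 924 mesenchymal cells, so leaving them out could change little. Chondrocytes were not left out of allograft mesenchyme, where they are 28 of 54 cells. The stricter filter of 1000 genes and 10% mitochondrial UMIs left under 50 cells and was not run for allograft against native and against spleen neutrophils, for the 2 comparisons with allograft mesenchyme and for native against spleen B cells. The gates of 1 marker fewer were not run for those 2 and for the B cells. Depth limits Nlrc5 most, with 6 to 15 UMIs in mesenchyme and native T cells.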
